A study of Mus musculus with 6 samples.

Results

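The Src family of tyrosine kinases and the Syk pathway were followed in alveolar macrophages (AMs) through 9 genes chosen by name out of the 24341 genes in the table, with earlier results of these data known. The 9 genes are the Src family kinases Src, Fgr, Lyn, Fyn and Yes1, the kinase Csk, the phosphatase gene Ptprc (CD45), and the kinases Syk and Btk. AMs are the resident macrophages of the lung airspaces. They were washed from the lungs of female C57BL/6 mice of 6 to 10 weeks by bronchoalveolar lavage, treated with red blood cell lysis buffer and sequenced in 3 samples from CD44+/+ mice and 3 samples from CD44-/- mice. The mice were naive. The CD44-/- mice lack functional CD44, the hyaluronan receptor, in every cell and not in AMs alone. Each sample was a pool of more than 1 mouse, so the replicate error is the spread between pools. By the paper the pools differed in their number of mice, and the fits gave all samples the same weight.

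Src family kinases sit at the inner face of the plasma membrane and phosphorylate the tyrosines of ITAMs, short motifs in the tails of Fc receptors and of the adaptors of many macrophage receptors. Syk binds the phosphorylated ITAM and passes the signal on through adaptors, phospholipase C gamma and Tec family kinases such as Btk. Csk holds Src family kinases in a closed form by phosphorylating their tail, and CD45 removes this phosphate. Lyn and Fgr are well known from myeloid cells, while Src, Fyn and Yes1 are found in many tissues. CD44 itself has been linked to Src family kinases in several cell types.

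The 250 bases before the transcription start are shown for Fgr, Src and Yes1, because these kinases span the range of levels described next. They were taken from the RefSeq table of build GRCm38.p6, in which 8 of the 9 genes were found and Lyn was not. Capitals mark the CG dinucleotides, and the positions are chr4:132973845-132974094 for Fgr, chr2:157424043-157424292 for Src and chr5:32610921-32611170 for Yes1, all on the plus strand.
Fgr: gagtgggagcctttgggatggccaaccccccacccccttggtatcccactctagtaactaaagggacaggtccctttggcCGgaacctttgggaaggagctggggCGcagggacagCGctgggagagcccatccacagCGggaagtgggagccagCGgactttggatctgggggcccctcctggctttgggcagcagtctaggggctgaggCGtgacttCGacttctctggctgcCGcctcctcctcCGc
Src: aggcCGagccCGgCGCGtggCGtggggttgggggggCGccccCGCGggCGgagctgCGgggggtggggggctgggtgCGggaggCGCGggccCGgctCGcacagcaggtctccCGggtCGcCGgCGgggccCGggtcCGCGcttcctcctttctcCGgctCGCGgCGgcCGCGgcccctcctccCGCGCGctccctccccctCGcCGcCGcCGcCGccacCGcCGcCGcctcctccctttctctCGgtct
Yes1: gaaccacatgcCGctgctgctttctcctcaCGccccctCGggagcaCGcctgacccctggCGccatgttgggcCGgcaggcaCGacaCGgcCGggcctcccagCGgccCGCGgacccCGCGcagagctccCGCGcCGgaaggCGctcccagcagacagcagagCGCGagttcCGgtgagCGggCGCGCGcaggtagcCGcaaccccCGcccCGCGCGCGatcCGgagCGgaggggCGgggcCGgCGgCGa
The Src window holds 40 CG dinucleotides and the Yes1 window 37, against 9 for Fgr. The median of the 32851 windows of this length in the table was 6. As many CG dinucleotides as in the Src window were found in 1.31% of all windows, as many as in the Yes1 window in 2.20%, and as many as in the Fgr window in 40.3%. None of the 3 windows holds the letters TATAAA on either strand, which 12.4% of all windows do. Windows of the other genes held 27 and 2 CG dinucleotides (Syk), 21 (Fyn), 16 and 7 (Csk), 4 and 2 (Ptprc) and 3 (Btk). These counts describe the sequence only.

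In FPKM, which is relative to transcript length and so allows levels of different genes to be set side by side, the genes ranged from 242.5 FPKM (Ptprc) to 0.0931 FPKM (Yes1) as means of the 6 samples. After Ptprc came Lyn at 147 FPKM, Syk at 137 FPKM and Fgr at 136.5 FPKM. These 3 neighbours were not separated: Lyn was above Syk in 5 of 6 samples, Syk above Fgr in 3 of 6, and their ranges overlapped. Below them Csk (86.7 FPKM), Btk (59.7 FPKM), Fyn (13.6 FPKM), Src (1.06 FPKM) and Yes1 followed in this order in 6 of 6 samples without overlap of ranges. Within a sample the level of Fyn was 7.98 to 22.7 times that of Src, and Src in turn was 6.575 to 34.9 times Yes1. The mean level of Src was above that of 58.4% of all genes in the table but of only 6.18% of the genes that were tested.

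**Figure D1:**
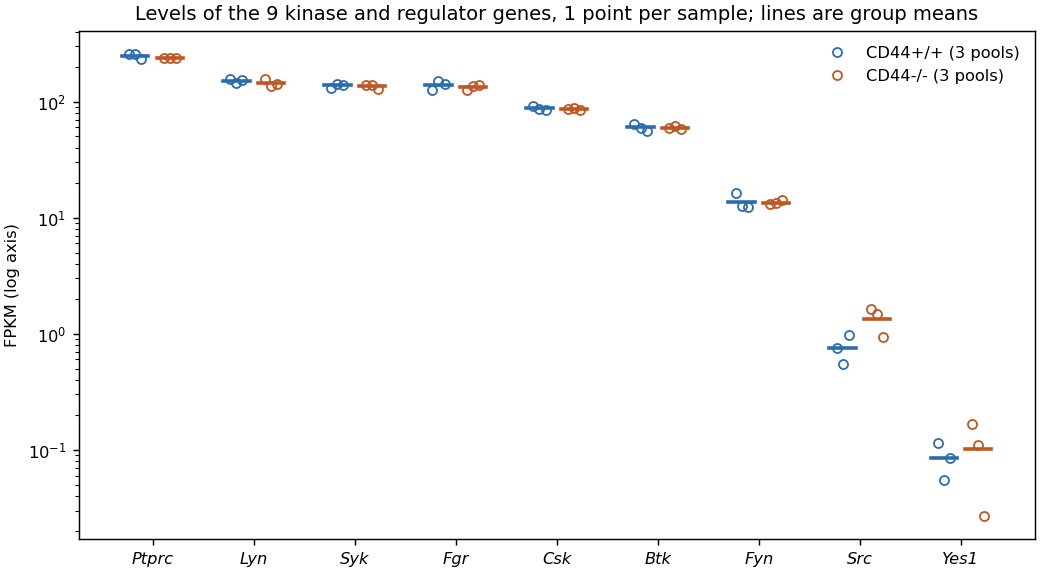
FPKM of the 9 genes on a log axis, with 1 open point for each of the 3 CD44+/+ (blue) and 3 CD44-/- (orange) samples and a line at the mean of each group. The groups lie on each other from Ptprc down to Fyn, the CD44-/- mean of Src is higher (1.35 against 0.758 FPKM) with 1 sample among the CD44+/+ values, and Yes1 is near 0.1 FPKM.

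Cd44 was read first as a check of the labels. It had 540, 535 and 527 FPKM in CD44+/+ replicates 1 to 3 and 54.7, 54.5 and 51.4 FPKM in CD44-/- replicates 1 to 3. The targeted gene thus matched the label in all 6 samples. The 8 AM markers examined (among them Chil3, Marco, Siglecf, Car4 and Fabp4) were all expressed, with summed levels of 13480 to 15940 FPKM in CD44+/+ and 12700 to 16730 FPKM in CD44-/- AMs, and no marker differed at an adjusted p under 0.05. Summed B cell markers (5 genes, 0.144 to 0.588 and 0.171 to 0.233 FPKM) and T and NK cell markers (6 genes, 0.960 to 2.30 and 0.826 to 1.17 FPKM) were low. The other lists were larger or less even. Neutrophil markers (6 genes found, Ngp and Camp at 0) summed to 21.8 to 67.6 and 32.9 to 37.4 FPKM, erythroid markers (5 genes) to 14.7 to 124 and 17.5 to 336.5 FPKM, and epithelial markers (10 genes) to 846 to 1256 and 747.5 to 1034 FPKM. Dendritic cell (5 genes), monocyte (3 genes) and platelet markers (5 genes, Gp9 at 0) stayed at or below 8.57 FPKM in sum, and eosinophil markers (3 genes, Prg2 and Epx at 0) at or below 0.0552 FPKM. In bulk RNA, fewer cells of a type and less RNA per cell cannot be told apart.

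Of the 9 genes, 8 passed the limit of a mean of 0.5 FPKM and were compared with limma on log2(FPKM + 0.1), and Yes1 did not. None of the 8 genes had an adjusted p under 0.05, a threshold passed by 0.111% of the 10800 genes tested (8 higher in CD44-/- AMs, 0.0741%, and 4 lower, 0.037%, or 6 higher and 5 lower after quantile normalization). At an unadjusted p under 0.05 there was 1 of the 8, Src, against 7.69% of all genes tested (4.75% higher and 2.94% lower). The genotypes did not separate fully in any of the 9 genes (0 without overlap), while 11.6% of all genes tested were without overlap (6.75% higher and 4.88% lower). The median log2 fold change, CD44-/- over CD44+/+ throughout, was -0.02 for the 8 genes and 0.01 for all genes tested.

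**Figure D2:**
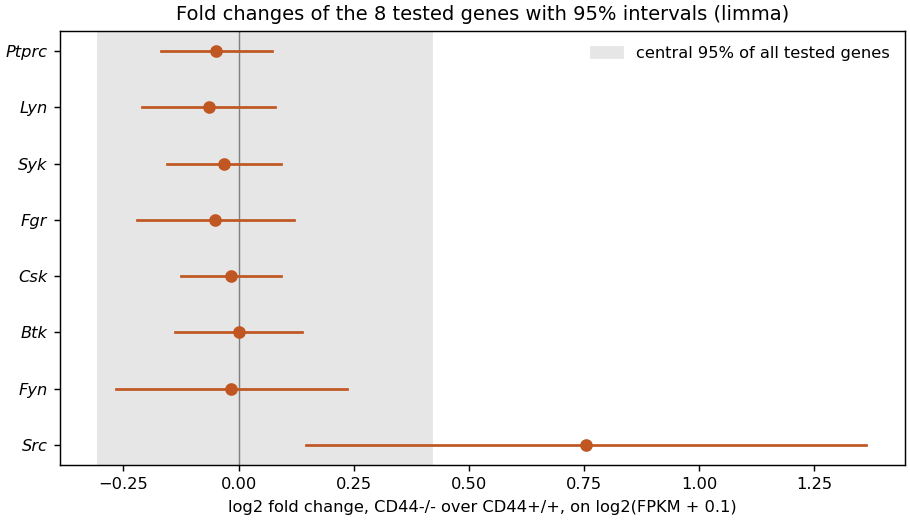
Log2 fold changes of the 8 tested genes (points) with 95% intervals from limma (lines), on log2(FPKM + 0.1), ordered by level. The grey band holds the central 95% of the 10800 tested genes (-0.30 to 0.42). All genes but Src have intervals around 0 inside the band, and the interval of Src runs from 0.15 to 1.36.

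Lyn, the Src family kinase with both activating and inhibitory roles in myeloid cells, is on chromosome 4 of mm10 from 3678121 to 3791612. It had 156, 144 and 152 FPKM in CD44+/+ replicates 1 to 3 and 156, 136 and 140 FPKM in CD44-/- replicates 1 to 3. The highest value in each genotype belonged to replicate 1, and the ranges overlapped. For Lyn the log2 fold change was -0.06 ± 0.06 (SE, 95% interval -0.21 to 0.08, limma adjusted p = 0.932).

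Fgr, a kinase largely restricted to myeloid cells and linked to integrin and Fc receptor signals, is on chromosome 4 from 132974095 to 133001882. Its levels were 125, 149 and 143 FPKM in CD44+/+ and 125, 137 and 140 FPKM in CD44-/- AMs. Here replicate 1 was the lowest sample of each genotype, with the same 125 FPKM in both, and the ranges of the genotypes overlapped. For Fgr the log2 fold change was -0.05 ± 0.07 (SE, 95% interval -0.22 to 0.12, adjusted p = 0.968). The sum of neutrophil markers, cells that also express Fgr, was lowest in the same CD44+/+ replicate 1 (21.8 FPKM, against 67.6 and 56.1 FPKM) and in CD44-/- replicate 1 (32.9 FPKM, against 37.4 and 37.1 FPKM). Cxcr2 of this list went the other way, highest of its genotype in CD44+/+ replicate 1 (3.97 FPKM) and in CD44-/- replicate 1 (4.56 FPKM). The part of neutrophil RNA in the spread of Fgr was not tested.

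Fyn, a kinase of many tissues that is prominent in T cells, is on chromosome 10 from 39369799 to 39565374. It had 16.4, 12.5 and 12.3 FPKM in CD44+/+ and 13.02, 13.3 and 14.1 FPKM in CD44-/- AMs. A single CD44+/+ sample, replicate 1, was thus above all others, and the log2 fold change of -0.02 ± 0.11 (SE, 95% interval -0.27 to 0.23, adjusted p = 0.989) became 0.12 (adjusted p = 0.514) without it. T and NK cell markers were also highest in this sample, at a sum of 2.30 FPKM against 0.826 to 1.28 FPKM in the other samples. Lck, the Src family kinase of T cells, was not high in it (0.268 FPKM, against 0.0847 to 0.383 FPKM elsewhere). Their part in the level of Fyn was not tested.

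Src, the founding member of the family, is on chromosome 2 from 157424293 to 157471838. It had 0.750, 0.550 and 0.974 FPKM in CD44+/+ replicates 1 to 3 and 1.63, 1.48 and 0.943 FPKM in CD44-/- replicates 1 to 3. CD44-/- replicates 1 and 2 were above every CD44+/+ sample, while CD44-/- replicate 3 lay just below CD44+/+ replicate 3. The ratio of the group means was 1.78 and the log2 fold change was 0.75 ± 0.27 (SE, 95% interval 0.15 to 1.36). Its unadjusted p was 0.0207 and its adjusted p from limma 0.524, so the difference did not hold after correction in this test. In all, 426 of the tested genes had a smaller p. The paper, which used another test (Cuffdiff), lists Src among the genes upregulated in CD44-/- AMs. An exact two-sided permutation test on FPKM gave p = 0.2, where 3 samples against 3 cannot give less than 0.1.

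The log2 values of Src had a within-group SD of 0.38, against a median of 0.245 for the 417 tested genes with a mean of 0.845 to 1.32 FPKM, around that of Src, and of 0.11 for all genes tested. Among those 417 genes 4.56% had an absolute log2 fold change at least as large, and among all genes tested 1.08%. Of the 417 genes, 8.15% had an unadjusted p under 0.05. Of the 9 tested epithelial markers, 4 had an unadjusted p under 0.05, against 7.69% of all genes tested, with adjusted p from 0.369 to 0.591 in limma. Sftpc, Sftpb and Epcam had higher means in CD44-/- AMs (log2 fold changes 1.44, 1.24 and 0.53) and Cdh1 a lower one (-0.28). Epcam, at 45.0 to 96.1 FPKM, was highest in CD44-/- replicate 2, where Sftpc was lowest of its genotype. Whether the RNA of Epcam and Cdh1 (18.3 to 26.4 FPKM) came from epithelium or from AMs cannot be told in bulk RNA. Sftpb, a surfactant protein gene of alveolar epithelium, had 2.13, 1.26 and 1.48 FPKM in CD44+/+ and 3.80, 2.32 and 6.53 FPKM in CD44-/- AMs, without overlap. Sftpb and Sftpc were lowest in CD44+/+ replicate 2, as Src was, and highest in CD44-/- replicate 3, where Src was lowest of its genotype. Most of the summed level of the list came from the secretory genes Scgb1a1 and Bpifa1, which had lower means in CD44-/- AMs (log2 fold changes -0.35 and -0.34, adjusted p = 0.8225 and 0.872). The part of epithelial RNA in the level of Src was not tested.

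Src shares chromosome 2 with the deleted gene, 54.5 Mb away from it. Without Cd44, 5 of the 861 tested genes of chromosome 2 had an adjusted p under 0.05, against 6 of 9938 elsewhere. Around Src itself, 19 other tested genes lay within 1 Mb on each side. Of these, 9 had a positive and 10 a negative log2 fold change, from -0.18 to 0.26 with a median of -0.00078, and 0 had an adjusted p under 0.05. Samhd1, which encodes a nucleotide hydrolase, was the only gene of the 19 with an unadjusted p under 0.05 (log2 fold change -0.15, limma adjusted p = 0.427).

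The tested genes whose values moved most like those of Src over the 6 samples were found by the root mean square difference of centred log2(FPKM + 0.1) values. They were Ccl17, a chemokine gene (difference 0.146), Clu, which encodes the secreted chaperone clusterin (0.181), and Apoc1, which encodes an apolipoprotein (0.194), while the median gene was at 0.4905. Ccl17 had 9.25, 7.30 and 12.4 FPKM in CD44+/+ and 15.9, 14.0 and 10.5 FPKM in CD44-/- AMs. Like Src, it was lowest in CD44+/+ replicate 2, highest in CD44-/- replicate 1, and overlapping through replicate 3. Clu had 1.47, 1.48 and 2.32 FPKM and then 3.08, 2.58 and 1.90 FPKM, again with overlap through replicate 3. Apoc1 had 21.1, 22.5 and 27.8 FPKM and then 48.5, 44.6 and 36.9 FPKM, without overlap.

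**Figure D3:**
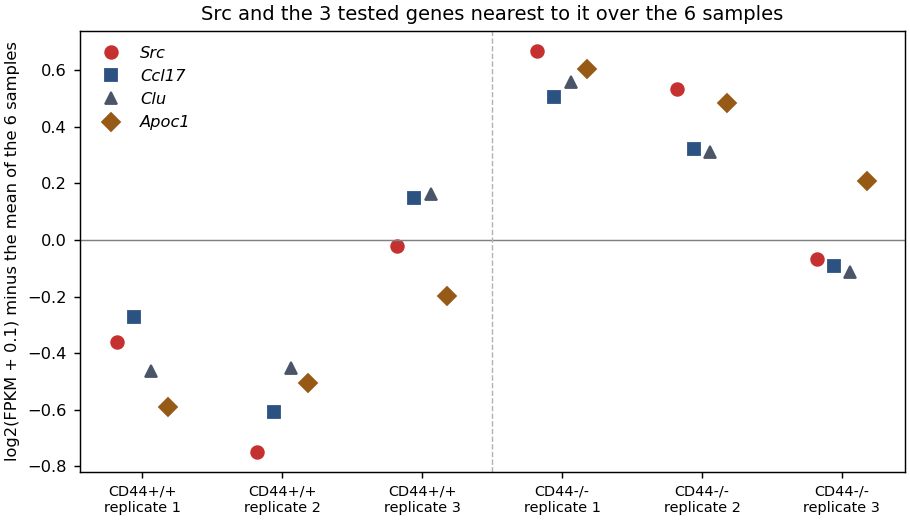
Log2(FPKM + 0.1) of Src, Ccl17, Clu and Apoc1 minus the mean of the 6 samples (vertical axis), in each sample (horizontal axis, CD44+/+ left and CD44-/- right of the dashed line). CD44-/- replicates 1 and 2 are above the mean in all 4 genes, and CD44-/- replicate 3 is near it except for Apoc1.

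Yes1, a close relative of Src found in most tissues, is on chromosome 5 from 32611171 to 32687066. It had 0.114, 0.0553 and 0.0856 FPKM in CD44+/+ and 0.167, 0.109 and 0.0270 FPKM in CD44-/- AMs. CD44-/- AMs gave both the highest and the lowest value, and with no filter on low values the log2 fold change was 0.07 (95% interval -0.64 to 0.77, limma adjusted p = 0.984). A difference was not detectable at this level, which is close to the 0.1 FPKM added before the log. The genes nearest to it in pattern were Sh3d21 (difference 0.122), Aoc2 (0.1355) and Per2 (0.142).

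The make-up of Src family transcripts was also compared. In each sample Lyn and Fgr made up most of the summed FPKM of the 5 family kinases Lyn, Fgr, Fyn, Src and Yes1, which are not the whole family. The share of Lyn was 49.5% ± 2.68 (SD, n = 3) in CD44+/+ and 49.2% ± 3.12 (SD, n = 3) in CD44-/- AMs. Fgr had 45.7% ± 3.47 (SD, n = 3) and 45.7% ± 3.05 (SD, n = 3), and Fyn had 4.52% ± 0.8395 (SD, n = 3) and 4.60% ± 0.187 (SD, n = 3). Src made up 0.251%, 0.180% and 0.316% of the sum in CD44+/+ and 0.551%, 0.514% and 0.319% in CD44-/- AMs. The nearest samples of the genotypes, both replicate 3, differed by far less than the spread within each genotype, and in FPKM Src overlapped. The summed FPKM by which the values were divided was itself 298.5 to 308 in CD44+/+ and 288 to 296 in CD44-/- AMs, so the order of these nearest samples rests on the sum and not on Src.

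**Figure D4:**
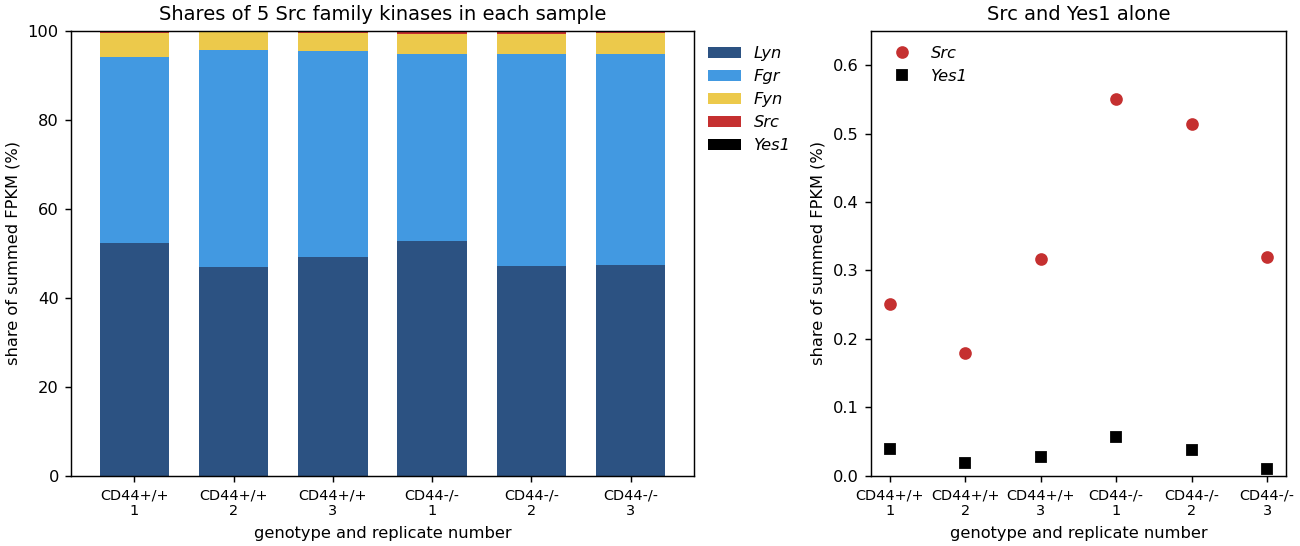
Left, share of each Src family kinase in the summed FPKM of the 5 family genes (stacked bars, 1 per sample). Right, the shares of Src and Yes1 alone on a narrower axis, where Src runs from 0.180% to 0.316% in CD44+/+ and from 0.319% to 0.551% in CD44-/- samples.

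Csk, the kinase that switches Src family kinases off, is on chromosome 9 from 57626646 to 57653631. It had 91.0, 85.7 and 84.9 FPKM in CD44+/+ and 86.2, 87.3 and 85.2 FPKM in CD44-/- AMs, with overlap. The log2 fold change was -0.02 ± 0.05 (SE, 95% interval -0.12 to 0.09, adjusted p = 0.985). Of the 8 genes tested it varied least, with a within-group SD of 0.04 on the log2 scale. Per summed FPKM of the 5 family kinases, the level of Csk was 0.276 to 0.305 in CD44+/+ and 0.2885 to 0.303 in CD44-/- AMs.

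Ptprc, which encodes the phosphatase CD45 of all white blood cells, is on chromosome 1 from 138062859 to 138175305. It had 254.5, 255 and 230 FPKM in CD44+/+ and 239, 236 and 239 FPKM in CD44-/- AMs. CD44+/+ replicate 3 was below all CD44-/- samples while the other CD44+/+ samples were above them. The log2 fold change was -0.05 ± 0.05 (SE, 95% interval -0.17 to 0.07, adjusted p = 0.944). The ratio of Ptprc to Csk was 2.83 ± 0.135 (SD, n = 3) in CD44+/+ and 2.76 ± 0.0516 (SD, n = 3) in CD44-/- AMs.

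Syk, the kinase that reads phosphorylated ITAMs, is on chromosome 13 from 52583437 to 52648792. It had 132, 142 and 140 FPKM in CD44+/+ and 139, 139 and 128 FPKM in CD44-/- AMs. Lowest of all was CD44-/- replicate 3, and the ranges overlapped. Its log2 fold change was -0.03 ± 0.05 (SE, 95% interval -0.15 to 0.09, adjusted p = 0.971). Btk, the Tec family kinase that is mutated in X-linked immunodeficiency, is on chromosome X from 134542341 to 134583140. It had 63.9, 59.4 and 56.0 FPKM in CD44+/+ and 59.4, 61.8 and 57.9 FPKM in CD44-/- AMs, with CD44+/+ samples at both ends of the range. The difference of its log2 means was the smallest of the 8 genes, with a 95% interval of -0.14 to 0.14 (standard error 0.06, limma adjusted p = 0.9997).

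For the 7 tested genes other than Src, the intervals together ran from -0.27 to 0.23 on the log2 scale. Larger differences in mean level than these bounds were outside the intervals of all 7 genes. Exact two-sided permutation tests on FPKM gave p from 0.4 to 1 for these genes.

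The genes around the kinases were grouped into 7 lists by role, with 101 genes, of which 85 were tested. None had an adjusted p under 0.05 (0 of 85, limma). The unadjusted p was under 0.05 for 6 genes (2 higher and 4 lower), or 7.06% against 7.69% of all genes tested. The groups were without overlap in 12 of the 85, or 14.1% against 11.6% of all genes tested, and 43 log2 fold changes were positive and 42 negative.

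**Figure D5:**
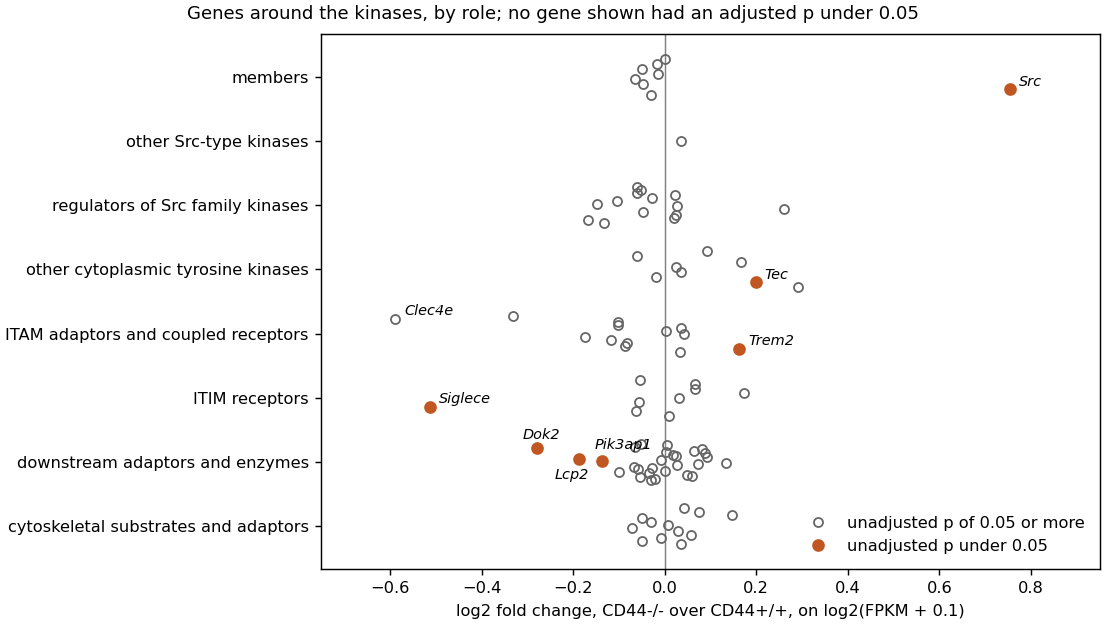
Log2 fold change, CD44-/- over CD44+/+, of each tested gene (points) by role list, with the 8 tested kinase and regulator genes on the top line (labelled members). Filled points have an unadjusted p under 0.05, of which 6 are in the role lists, and no gene has an adjusted p under 0.05.

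Of the other Src-type kinases, Frk (4.66 to 5.72 FPKM over the 6 samples) was tested. Lck, Blk, Ptk6 and Srms, kinases of lymphocytes and epithelia, had means from 0.00698 to 0.272 FPKM. Among 14 tested regulators of Src family kinases, 5 had a positive and 9 a negative log2 fold change, with a median of -0.05. The most abundant were Ptpn6 (SHP-1), with 223, 225 and 207 FPKM in CD44+/+ and 205, 213 and 215 FPKM in CD44-/- AMs, and Ptpn12 (PTP-PEST). Ptpn12 had 253, 254 and 244 FPKM in CD44+/+ and 242, 230 and 227 FPKM in CD44-/- AMs. It was the 1 of 14 without overlap (7.14%, against 11.6% of all genes tested), and its log2 fold change was -0.10 ± 0.05 (SE, adjusted p = 0.672). Ubash3b, a phosphatase that limits Syk, had the next smallest p of the list (log2 fold change -0.13, adjusted p = 0.833).

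Among the 8 tested cytoplasmic tyrosine kinases of other families, Ptk2b (Pyk2, 103 to 109 FPKM) and Fes (64.2 to 72.1 FPKM) had the highest levels. Tec, the relative of Btk, had 15.5, 14.6 and 13.3 FPKM in CD44+/+ and 17.8, 16.4 and 15.7 FPKM in CD44-/- AMs. The groups did not overlap, and its log2 fold change was 0.20 ± 0.08 (SE, limma adjusted p = 0.592). Abl1, with 11.99 to 13.3 FPKM in CD44+/+ and 13.5 to 13.8 FPKM in CD44-/- AMs, was also without overlap (log2 fold change 0.09, adjusted p = 0.856). In all, 3 of the 8 were without overlap (37.5%, against 11.6% of all genes tested), the other being Tnk2, named after its values were seen. Its log2 fold change was 0.29 (limma adjusted p = 0.922). Tnk2 had 0.4585, 0.436 and 0.471 FPKM in CD44+/+ and 0.509, 0.774 and 0.488 FPKM in CD44-/- AMs. Only its CD44-/- mean (0.590 FPKM, against 0.455 FPKM) was above the limit of 0.5 FPKM for testing.

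Upstream of the kinases, 13 genes of ITAM adaptors and receptors were tested. The adaptors Tyrobp (DAP12) and Fcer1g (the Fc receptor gamma chain) were far above the kinases, at 1660 to 1830 and 897 to 1000 FPKM, with log2 fold changes of 0.03 and 0.04 (adjusted p = 0.971 for both). Trem2, a lipid-sensing receptor that signals through DAP12 and Syk, had 48.2, 43.3 and 46.6 FPKM in CD44+/+ and 55.2, 50.4 and 49.1 FPKM in CD44-/- AMs. It was the 1 of 13 without overlap (7.69%, against 11.6% of all genes tested), with a log2 fold change of 0.16 ± 0.06 (SE, adjusted p = 0.592). Clec4e (Mincle), a Syk-coupled lectin receptor, had 15.9, 38.9 and 40.2 FPKM in CD44+/+ and 18.3, 20.0 and 19.9 FPKM in CD44-/- AMs. CD44+/+ replicate 1 lay below all CD44-/- samples and the other CD44+/+ samples far above them, which gave a log2 fold change of -0.59 ± 0.30 (SE, adjusted p = 0.735). Without CD44+/+ replicate 1 the log2 fold change of Clec4e was -1.03 (adjusted p = 0.00137), and that of the neighbouring lectin gene Clec4d, named after its values were seen, was -0.71 (adjusted p = 0.0148). The sum of neutrophil markers, as given above, was also lowest in CD44+/+ replicate 1, though Cxcr2 of that list was highest of its genotype there. The part of neutrophil RNA in these values was not tested.

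Among 9 tested receptors with ITIMs, the inhibitory counterpart of ITAMs, Sirpa (633.5 to 671 FPKM) and Siglecf (243 to 268 FPKM), the latter also an AM marker, were the most abundant, with log2 fold changes of 0.01 and -0.06. Siglece, an inhibitory sialic acid receptor, had 37.8, 38.2 and 45.8 FPKM in CD44+/+ and 28.8, 26.4 and 29.9 FPKM in CD44-/- AMs. Every CD44-/- sample was below every CD44+/+ sample, as in no other of the 9 (1 of 9 without overlap, 11.1%, against 11.6% of all genes tested). With a log2 fold change of -0.51 (standard error 0.09) it had the smallest p of the 85 genes, and its adjusted p from limma was 0.114, from 0.0636 to 0.477 over the alternatives. Fcgr2b, the inhibitory Fc receptor, had 113, 126 and 152 FPKM and then 147, 140.9 and 149.5 FPKM, with overlap (log2 fold change 0.17, adjusted p = 0.792).

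Downstream of Syk, 28 genes of adaptors and enzymes were tested, 14 with a positive and 14 with a negative log2 fold change and a median of -0.0031. An unadjusted p under 0.05 was found for 3 of the 28 (10.7%, against 7.69% of all genes tested), all with lower means in CD44-/- AMs (2.94% of all genes tested), and none passed the adjusted test. The groups were without overlap in 4 of the 28 (14.3%, against 11.6% of all genes tested), these 3 and Plcg2, a phospholipase C gamma gene named after its values were seen (log2 fold change -0.06). Dok2, a docking protein that restrains tyrosine kinase signals, had 28.5, 28.2 and 28.6 FPKM in CD44+/+ and 20.8, 25.5 and 24.2 FPKM in CD44-/- AMs. For Dok2 the log2 fold change was -0.28 ± 0.08 (SE, limma adjusted p = 0.371). Lcp2 (SLP-76), the adaptor that links Syk to phospholipase C gamma, had 72.1, 77.4 and 77.1 FPKM and then 68.1, 63.3 and 67.7 FPKM. This gave a log2 fold change of -0.19 ± 0.05 (SE, adjusted p = 0.393). Pik3ap1 (BCAP), which couples these kinases to PI3 kinase, was the most abundant gene of the list, with 380, 384 and 380 FPKM and then 359, 339 and 343 FPKM (log2 fold change -0.14, adjusted p = 0.484). Prkcd, a protein kinase C gene, had 94.2 to 109 FPKM over the 6 samples, with a log2 fold change near 0 (0.00097).

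The 12 tested cytoskeletal substrates and adaptors had a median log2 fold change of 0.02. Hcls1, a Src family substrate of blood cells, had 211 to 225 FPKM in CD44+/+ and 218 to 221 FPKM in CD44-/- AMs. Skap2 had 113 to 123 and 111 to 122 FPKM. Cttn (cortactin), a classical Src substrate, was without overlap at 5.97 to 6.16 FPKM in CD44+/+ and 6.50 to 7.02 FPKM in CD44-/- AMs (log2 fold change 0.15, limma adjusted p = 0.719). The other of the 2 genes without overlap (16.7% of the 12, against 11.6% of all genes tested) was Dock2, named after its values were seen, with 89.8 to 92.7 and 87.6 to 88.8 FPKM (log2 fold change -0.05). Nedd9, a docking protein of focal adhesions, had 94.3 to 109 and 93.9 to 97.9 FPKM with overlap (adjusted p = 0.916).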

How the data were processed

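RNA of 6 AM samples (3 CD44+/+ and 3 CD44-/-, grouped by their labels) was sequenced by the authors in paired-end reads of 42 bp from a stranded mRNA library. The authors aligned the reads to mm10 with STAR, and the deposited values are FPKM from Cufflinks. The annotation is not given in the sources used here. Columns of the deposited table with the authors' own comparison (mean FPKM, fold change, test statistic, p-value and q-value) were not used. The gene name and position columns are in another order than the identifiers and values (0 of 24341 rows match), so positions were looked up by name, with a first base of 1. For 1 gene a value was missing, and it was left out.

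With R 4.3.3 and limma 3.58.1, 10800 genes passed a limit of 0.5 FPKM on the mean over samples. A linear model of log2(FPKM + 0.1) was fitted to them, variances were moderated with a trend on level, and two-sided p-values were adjusted by the Benjamini-Hochberg method across these genes. Fold changes are on this scale and understate those of low genes. The script was tested on simulated data. The kinase genes, role lists and marker lists were chosen with earlier results of these data known. Named were the 9 genes, Cd44, in each role list the 2 genes with the highest mean, the 2 with the smallest p and any gene called, and the 3 genes nearest in pattern to Src and to Yes1, the next most variable gene. Clec4d, Plcg2, Tnk2, Dock2, Samhd1, Lck, markers and the other genes of low level were named in addition. Some genes of the lists are not reported here.

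Absolute depth is unknown from FPKM, and counting intervals were not computed. Depth relative to CD44+/+ replicate 1, read from steps between values under 0.05 FPKM, was 0.814 to 1.05, and sums of FPKM were 487901 to 504182. Same-numbered samples deviated together from their group means (correlations 0.212, 0.132 and 0.211 over all tested genes), so the replicate number was also fitted as a block. The pairing comes from the numbers in the labels and these correlations. No source used here says that same-numbered samples were collected together.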

Additional observations from a re-analysis of the deposited data

How the results depend on the processing

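In the 15 alternatives to the comparison (other pseudocounts, filters, scaling and variance models, the replicate block, and each sample left out), 0 of the tested kinase and regulator genes had an adjusted p under 0.05. With the replicate block Src kept a log2 fold change of 0.75 (adjusted p = 0.473), and the block changed no call among the kinase, regulator and role list genes. Src stayed positive, from 0.41 (pseudocount 1) to 0.98 (without CD44-/- replicate 3), with adjusted p from 0.369 to 0.9998 and an unadjusted p under 0.05 in 12 of 15. It was above 0.05 without CD44+/+ replicate 2 (0.0713) and without CD44-/- replicates 1 (0.0775) or 2 (0.0675).

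Signs near 0 were not fixed when single samples were left out. The log2 fold change then ran from -0.046 to 0.049 for Btk, -0.035 to 0.015 for Csk, -0.13 to 0.0015 for Fgr, -0.089 to 0.12 for Fyn and -0.062 to 0.0097 for Syk. Lyn (-0.124 to -0.024) and Ptprc (-0.097 to -0.023) kept their sign but not their size. Of the role list genes, 0 to 2 were called with single samples left out, the 2 being Clec4d and Clec4e without CD44+/+ replicate 1. Over all genes the 12 calls became 7 with no filter, which tests 16227 genes, 9 with the replicate block (5 higher and 4 lower), and 6 to 36 with single samples left out: 36 without CD44+/+ replicate 1, 7 without CD44+/+ replicate 2, 22 without CD44-/- replicate 1 and 6 without CD44-/- replicate 2. The cause was not tested. At the levels of Yes1 and Src the spread between samples was widest among the 9 genes.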
